A study of Homo sapiens with 12 samples.

Results

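RNA polymerase II (Pol II) is built in the cytoplasm and imported into the nucleus, and the 9 genes described here encode parts of that pathway: the assembly and import factors RPAP2, RPAP1, GPN1, GPN2 and GPN3, the largest Pol II subunits POLR2A and POLR2B, and the phosphatases SSU72 and CTDP1. RPAP2 was included because it is one of the genes the study examined for splicing in SHQ1-depleted cells, and the others share its pathway. All 9 were found by Ensembl identifier among the 58288 genes of both deposited tables. RNA was measured by RNA-Seq in HPB-ALL and KOPTK1, 2 established human T-cell acute lymphoblastic leukemia (T-ALL) lines. By the labels, each line has 3 Control libraries from cells that received shGFP, an shRNA against GFP, and 3 libraries from cells that received shSHQ1, an shRNA against the H/ACA snoRNP assembly factor SHQ1, 12 libraries in all. All of these cells carried a pLKO.1 lentivirus, were selected with puromycin at 2 μg/ml for 48 h and had rRNA removed from their RNA. Each group is 1 line, and nothing in the labels says whether its libraries came from separate cultures, so the p-values below measure the spread between these libraries.

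The shRNA carried by a given library could not be read from the tables. The 6 count columns of each table are headed only by a number, 7 to 12 in HPB-ALL and 1 to 6 in KOPTK1, and the line is known from the table that the labels name. Libraries are therefore called by line and heading, shSHQ1 and Control are not compared, and the comparison made is HPB-ALL against KOPTK1 over the 6 libraries of each, both shRNAs together. SHQ1, the target of the knockdown, is given by library without a grouping by shRNA. In HPB-ALL its level was 70.3, 71.8, 70.9, 47.6, 46.4 and 49.1 RPKM (reads per kilobase of counted exon per 1000000 counts of the library) in libraries 7 to 12, and in KOPTK1 it was 45.7, 44.1, 46.4, 41.9, 41.8 and 39.3 RPKM in libraries 1 to 6. HPB-ALL held values on either side of a gap between 49.1 and 70.3 RPKM. The KOPTK1 values all lay within 39.3 to 46.4 RPKM, but libraries 1 to 3 (44.1 to 46.4 RPKM) were above libraries 4 to 6 (39.3 to 41.9 RPKM).

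Total counts were 36792076 to 42842791 per library in HPB-ALL and 22884785 to 36098045 in KOPTK1. The 8 T-lineage markers summed to 1004 to 1048 RPKM in HPB-ALL and 1008 to 1060 RPKM in KOPTK1, while the 3 myeloid, 2 erythroid and 2 epithelial markers each summed to at most 2.44 RPKM in every library. The T-lineage sum hides CD2, which was at 12.7 to 15.0 RPKM in HPB-ALL, 36.9 to 39.4 RPKM in KOPTK1 libraries 1 to 3 and 55.6 to 59.8 RPKM in libraries 4 to 6. The KOPTK1 libraries stood apart from each other. Pearson's r with the HPB-ALL mean, across genes of 1 library, was 0.921 to 0.927 for libraries 1 to 3 and 0.832 to 0.835 for libraries 4 to 6, against 0.987 to 0.989 for the HPB-ALL libraries. CD79A, the only one of the 3 B-cell markers above 1 RPKM in HPB-ALL on average, was at 40.3 to 45.9 RPKM there, at 24.0 to 24.6 RPKM in KOPTK1 libraries 1 to 3 and at 5.87 to 7.17 RPKM in libraries 4 to 6. Libraries 1 to 3 thus lay between HPB-ALL and libraries 4 to 6 in r, CD2 and CD79A. Whether some KOPTK1 libraries hold RNA of both lines was not tested, and every KOPTK1 mean and line difference below rests on these libraries. The line differences were therefore also fitted without each set of 3, an alternative chosen after the data were seen, and those that moved most or changed their call are given below.

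As background, the catalytic core of Pol II forms around POLR2A and POLR2B with the help of HSP90 and its R2TP cochaperone, and the GPN-loop GTPases, RPAP1 and RPAP2 take part in assembly and in passage to the nucleus. POLR2A carries a long C-terminal domain (CTD) of repeated heptads whose serines are phosphorylated and dephosphorylated as transcription proceeds. RPAP2 and SSU72 remove phosphate from Ser5 of the heptad, and CTDP1, also known as FCP1, acts mainly on Ser2 and returns Pol II to an unphosphorylated form. Pol II is needed in all cells, T-ALL cells included, and none of these genes marks the T lineage.

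The 3 genes on which the comparison turns, RPAP2, GPN3 and POLR2A, each have a GC box, the 6-base motif GGGCGG or its complement CCGCCC that Sp1-type factors bind, within the 100 bases before the RefSeq transcription start. These 30-base windows are shown so that the members that differ most between the lines can be seen beside each other, with the box nearest the start in capitals and each sequence read 5′ to 3′ on the strand of the gene (RefSeq, GRCh38.p14).
RPAP2: gctcttctggccCCGCCCcgcgctacgcgt
GPN3: ttcgggagagcgGGGCGGgcagatccgcga
POLR2A: cgggaaaggaagGGGCGGggacgcgagggc
The windows lie at chr1:92298980-92299009 on the plus strand for RPAP2, chr12:110468740-110468769 on the minus strand for GPN3 and chr17:7484302-7484331 on the plus strand for POLR2A. The counted RPAP2 model starts at 92298965, 94 bases before the RefSeq start, so the RPAP2 window lies inside its first counted exon block. In the 100 bases before the RefSeq start, RPAP2 and GPN3 have 1 GC box each and POLR2A has 2. The nearest box ends 62, 31 and 47 bases before the start, respectively. A promoter sequence was matched for 8 of the 9 genes, RPAP1 being the one without, and 5 of the 8 hold the motif on either strand (RPAP2, GPN2, GPN3, POLR2A and POLR2B). For POLR2B these 100 bases lie inside a counted exon block, 56978640 to 56979004. The same letters were found on either strand in 31.3% of 35116 promoters of the same length, so the motif is common, and a match is not evidence of binding. RPAP2 was lower in HPB-ALL whereas GPN3 and POLR2A were higher there. Since all 3 hold the motif and were picked for their difference, a link between motif and direction was not tested.

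RPAP2 (ENSG00000122484, GRCh38 chromosome 1, 92298965 to 92402056, plus strand) had the lowest RPKM of the 9 in HPB-ALL. Of the 9, it was the one furthest below its KOPTK1 level in HPB-ALL. Its level in HPB-ALL libraries 7 to 12 was 7.26, 6.91, 7.23, 6.76, 6.89 and 6.88 RPKM, from 4228 to 5266 counts per library. In KOPTK1 libraries 1 to 6 it was 9.02, 9.44, 9.17, 11.1, 11.4 and 10.6 RPKM. Every KOPTK1 library was above every HPB-ALL library, and within KOPTK1 libraries 4 to 6 were the 3 highest. The means were 6.99 ± 0.207 RPKM in HPB-ALL and 10.1 ± 1.05 RPKM in KOPTK1 (SD, n = 6 libraries each). In the quasi-likelihood test of edgeR the log2 difference, HPB-ALL minus KOPTK1, was -0.53 (SE 0.06, 95% CI -0.66 to -0.41, adjusted p = 5.2e-06 by Benjamini-Hochberg over 23090 genes), a level 1.45 times higher in KOPTK1. Of all genes tested, 28.8% had a larger difference in either direction. Without KOPTK1 libraries 1 to 3 the log2 difference was -0.65, and without libraries 4 to 6 it was -0.40, with edgeR adjusted p-values of 8.8e-12 and 4.6e-08.

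**Figure D1:**
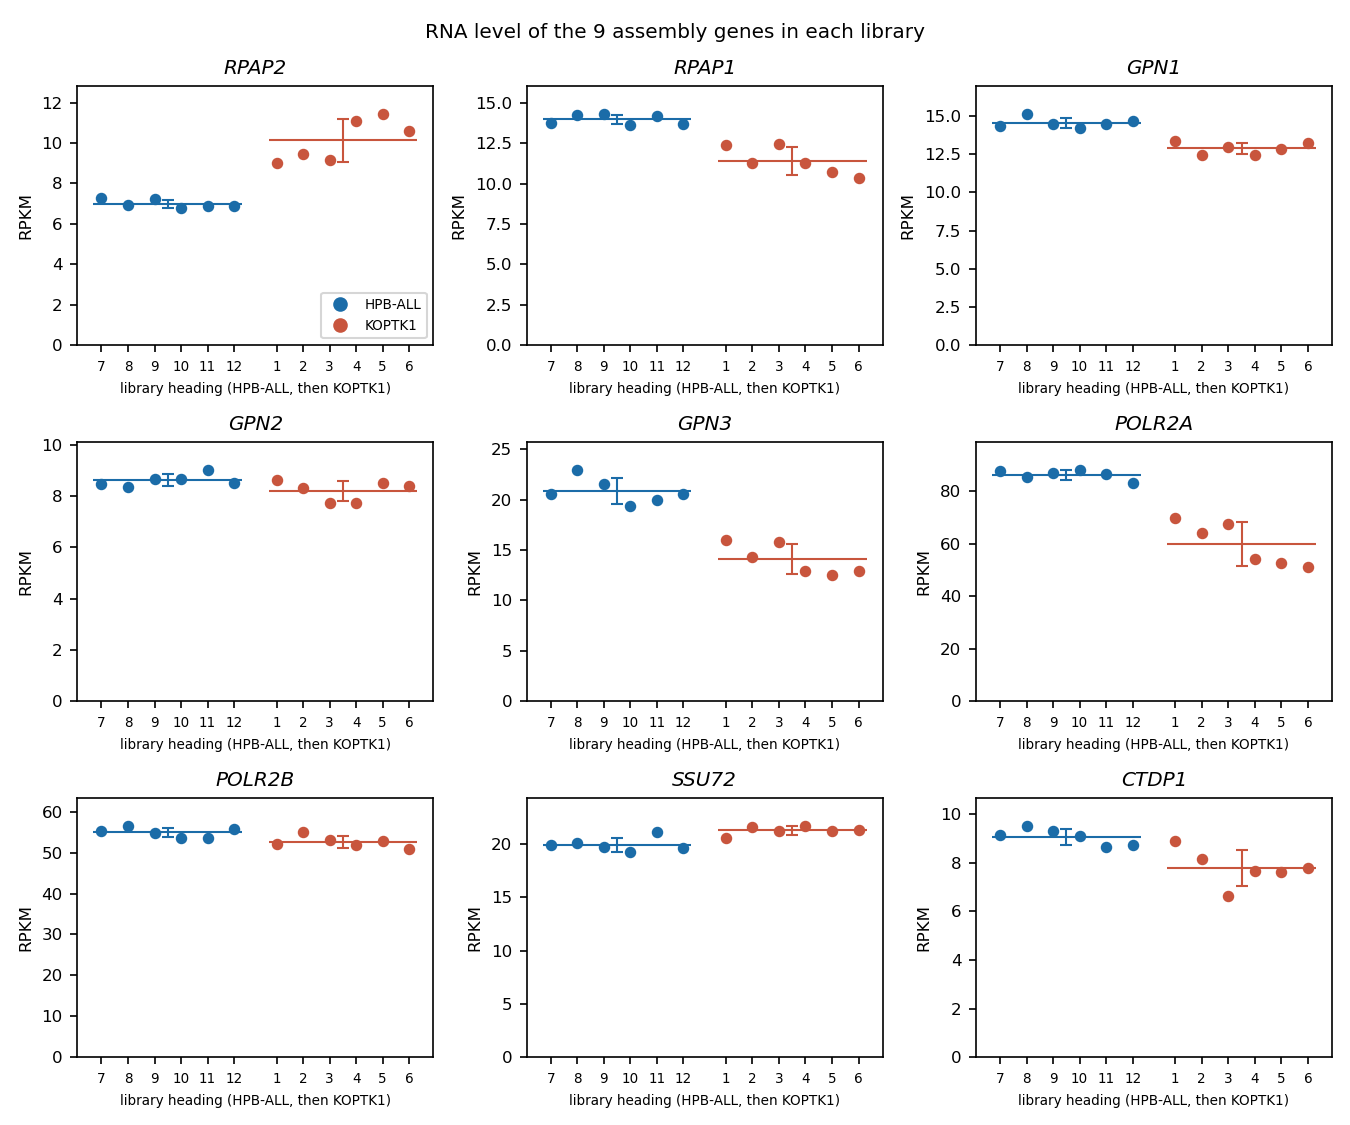
RNA level (RPKM, vertical axis from 0) of each of the 9 genes in the 6 HPB-ALL and 6 KOPTK1 libraries, 1 point per library, with the mean of each line (horizontal line) and its SD (bar). RPAP2 was between 6.76 and 7.26 RPKM in HPB-ALL and between 9.02 and 11.4 RPKM in KOPTK1, whereas GPN3 and POLR2A lay higher in HPB-ALL and POLR2B overlapped.

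The line difference held for 7 of the 9 genes at an adjusted p-value under 0.05 in edgeR, 5 of them higher in HPB-ALL (GPN3, POLR2A, RPAP1, CTDP1 and GPN1) and 2 higher in KOPTK1 (RPAP2 and SSU72). That is 77.8% of them, beside 65.0% of the 23090 genes tested, of which 32.5% were higher in HPB-ALL and 32.4% were higher in KOPTK1. The 6 libraries of each line did not overlap for 5 of the 9 genes, beside 45.4% of all genes tested. None of the 9 reached a change of 1.5-fold together with the adjusted p-value, which 24.3% of genes did. Without KOPTK1 libraries 1 to 3, however, 3 of the 9 reached it (RPAP2, GPN3 and POLR2A), and without libraries 4 to 6 none did. The share of all genes past 1.5-fold was not computed for these fits, so the 3 of 9 cannot be set beside it. By the adjusted p-value alone, 16073 and 12320 of the 23090 genes passed in them, respectively, against 15000 over all libraries. The median log2 difference was 0.18 over the 9 genes and -0.02 over all genes tested. POLR2B and GPN2 did not pass.

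Among the other assembly factors, GPN3 had the largest difference of the 9 genes. GPN3 (ENSG00000111231, chromosome 12, 110452484 to 110468721, minus strand) is a GPN-loop GTPase that pairs with GPN1. Its level was 20.6, 22.97, 21.6, 19.3, 19.9 and 20.6 RPKM in HPB-ALL libraries 7 to 12, and 16.0, 14.3, 15.8, 12.97, 12.5 and 12.9 RPKM in KOPTK1 libraries 1 to 6. All HPB-ALL libraries were above all KOPTK1 libraries, and libraries 4 to 6 were the lowest. The log2 difference was 0.56 (SE 0.07, 95% CI 0.42 to 0.71, edgeR adjusted p = 1.1e-05), 1.48-fold higher in HPB-ALL. It was 0.72 without KOPTK1 libraries 1 to 3 and 0.44 without libraries 4 to 6. The GPN3 exons share 250 of 1748 counted bases with FAM216A on the opposite strand, and reads there cannot be told apart because the library kit does not keep the strand.

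GPN1 (ENSG00000198522, chromosome 2, 27628247 to 27651508, plus strand), the GTPase that shuttles with Pol II between cytoplasm and nucleus, differed less. It was at 14.3, 15.1, 14.5, 14.2, 14.5 and 14.7 RPKM in HPB-ALL libraries 7 to 12 and at 13.4, 12.4, 12.99, 12.5, 12.8 and 13.2 RPKM in KOPTK1 libraries 1 to 6. The lines did not overlap, and KOPTK1 libraries 1 to 3 were not apart from 4 to 6. The log2 difference was 0.18 (SE 0.03, edgeR adjusted p = 0.00036). Of the 3043 counted bases of GPN1, 697 also lie in SUPT7L and 347 in CCDC121, both on the opposite strand, and 353 lie in ENSG00000259080 on the same strand. Expressed per length, GPN3 RNA was 1.43 ± 0.0619 times GPN1 RNA in HPB-ALL (SD, n = 6 libraries) and 1.09 ± 0.108 times in KOPTK1 (n = 6 libraries). This ratio was 1.15 to 1.21 in KOPTK1 libraries 1 to 3 and 0.977 to 1.04 in libraries 4 to 6, against at least 1.36 in every HPB-ALL library.

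GPN2 (ENSG00000142751, chromosome 1, 26876133 to 26890297, minus strand), the family member outside that pair, did not pass the test. Its values were 8.47, 8.38, 8.67, 8.69, 9.03 and 8.52 RPKM in HPB-ALL and 8.63, 8.31, 7.72, 7.75, 8.50 and 8.38 RPKM in KOPTK1, in library order. The ranges overlapped, and the log2 difference of 0.07 had a 95% CI of -0.01 to 0.15 and an edgeR adjusted p = 0.12. Of the 4727 counted bases of GPN2, 306 also lie in ENSG00000226698 on the opposite strand. RPAP1 (ENSG00000103932, chromosome 15, 41517176 to 41544259, minus strand), a Pol II-associated protein implicated in its import, was at 13.7, 14.2, 14.3, 13.6, 14.2 and 13.7 RPKM in HPB-ALL and 12.4, 11.3, 12.5, 11.3, 10.7 and 10.3 RPKM in KOPTK1. All HPB-ALL libraries were higher, with a log2 difference of 0.29 (SE 0.04, edgeR adjusted p = 7.3e-05). It was 0.39 without KOPTK1 libraries 1 to 3 and 0.21 without libraries 4 to 6. RPAP1 and RPAP2 thus stood in different proportion in the lines: RPAP1 was 1.89 to 2.06 times RPAP2 per length in HPB-ALL libraries and 0.934 to 1.38 times in KOPTK1 libraries.

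POLR2A (ENSG00000181222, chromosome 17, 7484620 to 7499758 in the tables, plus strand), the catalytic subunit that bears the CTD, had the highest level of the 9 in both lines. It was at 87.8, 85.2, 86.9, 88.1, 86.4 and 83.1 RPKM in HPB-ALL libraries 7 to 12. In KOPTK1 libraries 1 to 6 it was at 69.7, 64.1, 67.6, 54.2, 52.6 and 50.9 RPKM. HPB-ALL was higher in every library, and KOPTK1 libraries 4 to 6 were the lowest. The log2 difference was 0.53 (SE 0.07, 95% CI 0.37 to 0.68, edgeR adjusted p = 2.7e-05), 1.44-fold higher in HPB-ALL. It was 0.73 without KOPTK1 libraries 1 to 3 and 0.36 without libraries 4 to 6. The POLR2A model in the tables covers 50.0% of the RefSeq span of the gene, since its 10 exon blocks of 2083 bases end 14858 bases before the RefSeq end, so these levels come from the part of the gene nearer its 5′ end.

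POLR2B (ENSG00000047315, chromosome 4, 56977742 to 57031168, plus strand), the other large subunit, overlapped between the lines. It was at 55.3, 56.6, 54.8, 53.6, 53.7 and 55.8 RPKM in HPB-ALL and 52.1, 55.1, 53.2, 51.9, 52.8 and 50.9 RPKM in KOPTK1. Of the 4296 counted bases of POLR2B, 251 also lie in NOA1 and 270 in IGFBP7, both on the opposite strand. The log2 difference of 0.06 (95% CI 0.00 to 0.12) had an edgeR adjusted p = 0.059, so it did not pass. Without KOPTK1 library 2, the highest of that line, it was 0.08 and passed with an edgeR adjusted p = 0.023, and without libraries 1 to 3 it was 0.10 and passed with an edgeR adjusted p = 0.005. Without libraries 4 to 6 it was 0.04 (edgeR adjusted p = 0.33), and at a minimum mean of 10 RPKM it was 0.01 (edgeR adjusted p = 0.69). DESeq2 gave 0.07, with an adjusted p = 0.029. Relative to the Pol II subunit genes POLR2C to POLR2L, whose mean log2 difference was 0.18, POLR2B and GPN2 were lower in HPB-ALL (-0.11 and -0.10). POLR2A per length was 1.49 to 1.64 times POLR2B in the HPB-ALL libraries and 0.995 to 1.34 times in the KOPTK1 libraries. RPAP2 per length was 0.122 to 0.132 of POLR2B in HPB-ALL and 0.171 to 0.217 of it in KOPTK1, and the libraries of the lines did not overlap in either ratio.

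The phosphatases differed in opposite directions and by little. SSU72 (ENSG00000160075, chromosome 1, 1541673 to 1574869, minus strand), which also serves in 3′-end processing, was at 19.9, 20.1, 19.7, 19.2, 21.1 and 19.6 RPKM in HPB-ALL and 20.6, 21.7, 21.3, 21.7, 21.3 and 21.4 RPKM in KOPTK1. Library 11 of HPB-ALL lay within the KOPTK1 range and the other HPB-ALL libraries lay below it. The log2 difference was -0.09 (SE 0.03, edgeR adjusted p = 0.0095), and with no filter on low values it was -0.03 and did not pass. CTDP1 (ENSG00000060069, chromosome 18, 79679801 to 79756623, plus strand) was at 9.16, 9.53, 9.30, 9.10, 8.67 and 8.72 RPKM in HPB-ALL and 8.89, 8.16, 6.66, 7.66, 7.62 and 7.81 RPKM in KOPTK1. The counted model of CTDP1 starts inside the RefSeq gene and covers 96.2% of its span. Library 1 of KOPTK1 lay within the HPB-ALL range and the other 5 lay below it. The log2 difference was 0.22 (SE 0.06, edgeR adjusted p = 0.0042). Relative to POLR2C to POLR2L it was 0.05 and did not pass, as for GPN1 at 0.00.

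**Figure D2:**
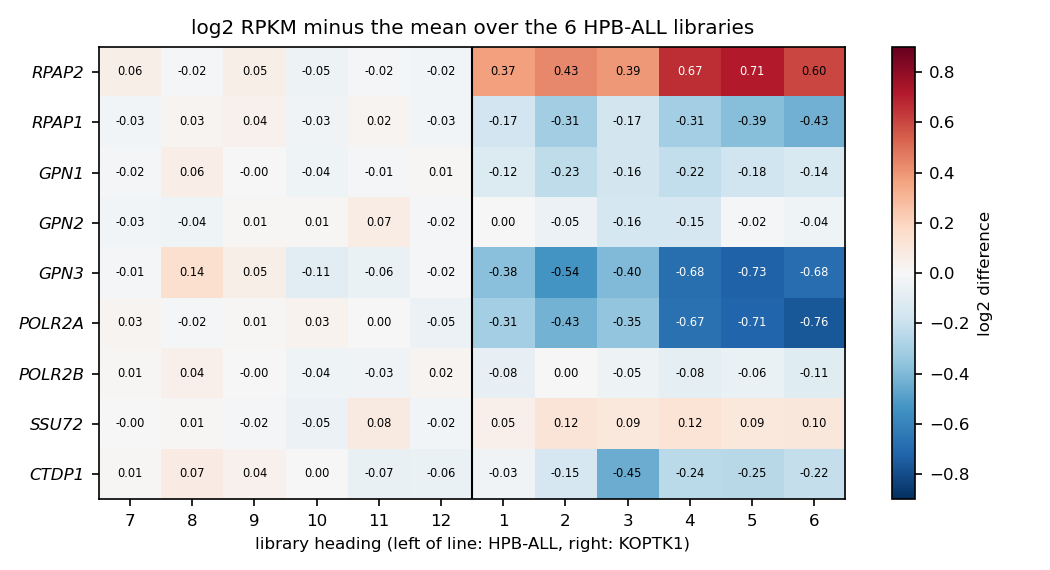
Log2 RPKM of each gene (rows) in each library (columns) minus the mean of its log2 values over the 6 HPB-ALL libraries, red for higher and blue for lower. RPAP2 was 0.37 to 0.43 above that mean in KOPTK1 libraries 1 to 3 and 0.60 to 0.71 above it in libraries 4 to 6, and GPN3 and POLR2A were below it in the same order.

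KOPTK1 libraries 1 to 3 were thus nearer to HPB-ALL than libraries 4 to 6 for RPAP2, GPN3 and POLR2A, and each of these genes had libraries 1, 2 and 3 as its nearest. This was so for 3 of the 9 genes, and for 47.7% of all genes tested, so it is not particular to the members. The spread within KOPTK1 was widest in the same genes: the coefficient of variation was 13.8% for POLR2A, 10.7% for GPN3 and 10.3% for RPAP2, beside 2.16%, 6.21% and 2.96% in HPB-ALL. For POLR2B it was 2.71% in KOPTK1 and 2.14% in HPB-ALL. Depth, CD79A and SHQ1 also differed between these sets of KOPTK1 libraries. Total counts were 33905452 to 36098045 in libraries 1 to 3 and 22884785 to 25938761 in libraries 4 to 6. SHQ1 was at 44.1 to 46.4 RPKM in libraries 1 to 3 and 39.3 to 41.9 RPKM in libraries 4 to 6. Whether the sets differ in shRNA is not known. The part of depth, CD79A and SHQ1 in the result was not tested. In bulk samples, fewer cells with a transcript and less RNA per cell cannot be told apart.

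By level per length, the order in HPB-ALL ran from POLR2A (86.3 ± 1.87 RPKM) and POLR2B (55.0 ± 1.18 RPKM) through GPN3, SSU72, GPN1, RPAP1, CTDP1 and GPN2 to RPAP2 (SD, n = 6 libraries). Set side by side within each library, neighbours stood in this order in 6 of 6 libraries, except GPN3 above SSU72 and CTDP1 above GPN2, each in 5 of 6, whose ranges also overlapped. GPN1 was above RPAP1 in 6 of 6 libraries although their ranges overlapped. In KOPTK1 the order was POLR2A, POLR2B, SSU72, GPN3, GPN1, RPAP1, RPAP2, GPN2 and CTDP1. There POLR2A (59.8 ± 8.24 RPKM) was above POLR2B (52.7 ± 1.43 RPKM) in 5 of 6 libraries and GPN2 above CTDP1 in 5 of 6. GPN3 was above GPN1 and RPAP1 above RPAP2 in 4 of 6 libraries each, and the ranges of these 4 pairs overlapped. The other neighbours kept the order in 6 of 6. RPAP2 was above GPN2 in every KOPTK1 library, the reverse of HPB-ALL. Among genes at 1 RPKM or more, RPAP2 was at percentile 52.6 in HPB-ALL and 63.6 in KOPTK1, and POLR2A was at 97.6 and 96.3.

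What the tables count as a gene bears on these levels. RPAP2 has 13 exon blocks and 16993 counted bases, of which the last block holds 15046, or 88.5%. Reads per exon block were not analysed here, so where its reads lie is not known, while this length enters its RPKM. In counts not divided by length, RPAP2 (4228 to 5266 per HPB-ALL library) was above RPAP1 (2342.5 to 2862) and below POLR2B (8474.5 to 10242.5). The rank of RPAP2 by level and the size of its ratios to these genes therefore depend on this length. In GPN2 the last block holds 76.5% of 4727 bases, and in SSU72 the second of 5 blocks, 1560848 to 1564916, holds 78.0% of 5215 bases. RPAP1 (25 blocks, 4665 bases) and POLR2B (27 blocks, 4296 bases) are spread over many exons, with the largest block at 16.2% and 8.50%. Splice junctions and intron reads were not analysed here, so a change in splicing of RPAP2 is outside these values.

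The remaining Pol II subunits were mostly higher in HPB-ALL. Of 11 genes, POLR2C to POLR2L and the Pol II-bound POLR2M, 8 were higher in HPB-ALL, 2 were higher in KOPTK1 and 1 did not pass in edgeR, with a median log2 difference of 0.20. This is 90.9% of the list, beside 65.0% of all genes tested, 32.5% higher in HPB-ALL and 32.4% higher in KOPTK1. Without KOPTK1 libraries 4 to 6, POLR2G (0.12) and POLR2M (0.09) did not pass, which left 6 higher in HPB-ALL. In that fit 12320 of all 23090 genes passed, against 15000 over all libraries. POLR2F, a subunit shared by all 3 nuclear RNA polymerases, had the largest difference at 0.50 (7.34 ± 0.291 against 5.17 ± 0.698 RPKM, SD, n = 6 libraries each) and the lowest level of the list. POLR2I, a Pol II-specific small subunit, was 0.45 higher and POLR2D, which forms the stalk with POLR2G, was 0.43 higher. POLR2E, another shared subunit, went the other way at -0.38 (33.0 ± 0.973 against 42.97 ± 3.03 RPKM), as did POLR2J at -0.19. POLR2J has near-identical copies among which reads may be split, so its value is uncertain. POLR2K, at 0.02 (edgeR adjusted p = 0.51), did not pass.

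Of 15 matched chaperone genes, 9 were higher in HPB-ALL, 2 were higher in KOPTK1 and 4 did not pass. The 73.3% that passed stand beside 65.0% of all genes tested. RUVBL2, an AAA+ ATPase of R2TP, was the only listed gene past 1.5-fold over all libraries, with a log2 difference of 0.67 (SE 0.12, edgeR adjusted p = 0.0003). It was at 85.0 ± 4.91 RPKM in HPB-ALL and 53.5 ± 12.5 RPKM in KOPTK1 (SD, n = 6 libraries each), where libraries 1 to 3 were at 63.4 to 66.5 RPKM and libraries 4 to 6 at 40.8 to 43.4 RPKM. Its log2 difference was 1.03 without libraries 1 to 3 and 0.39 without libraries 4 to 6, so whether it passed 1.5-fold depended on the set. PDRG1, of the prefoldin-like complex, did not pass without libraries 4 to 6 (0.09). RUVBL1, the partner of RUVBL2, was lower in HPB-ALL, at -0.12. The R2TP subunit PIH1D1 was higher by 0.27, as was WDR92, which associates with this complex and had the lowest level of the list at 5.68 ± 0.384 RPKM in HPB-ALL (n = 6 libraries). The prefoldin subunit PFDN6 was higher by 0.38. TTI1, which joins TELO2 in the TTT complex, was lower in HPB-ALL at -0.32, whereas TELO2 was higher at 0.28. The inducible HSP90 gene HSP90AA1 (0.04, edgeR adjusted p = 0.24) did not pass, and the constitutive HSP90AB1, the most abundant gene of the list in HPB-ALL at 414 ± 8.36 RPKM (n = 6 libraries), was higher there by 0.22.

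Transport genes differed little. SLC7A6OS, the human counterpart of the yeast Pol II import factor Iwr1, was higher in KOPTK1 (-0.17, edgeR adjusted p = 0.0056), but did not pass without KOPTK1 libraries 4 to 6 (-0.10, edgeR adjusted p = 0.059). The exportin XPO1 at -0.01 and the importin KPNB1 at -0.03 did not pass, which makes 1 of 3 in this list. Among the other CTD phosphatases, UBLCP1 (0.54) and CTDSP1 (0.42) were higher in HPB-ALL and CTDSP2 (-0.31) and CTDSPL2 (-0.25) were higher in KOPTK1, while CTDSPL at 0.03 did not pass. Among 4 CTD-binding genes listed as partners of RPAP2 or Pol II, RPRD1A was higher in HPB-ALL (0.35), RPRD1B (-0.26) and RECQL5 (-0.18) were higher in KOPTK1, and RPRD2 (-0.06) did not pass. RECQL5 did not pass without KOPTK1 libraries 4 to 6 (-0.11). RPRD1A and RPRD1B bind the CTD as a related pair and here lay on opposite sides. Over all libraries, 33.3% of the transport genes, 80% of these phosphatases and 75% of the CTD-binding genes passed, beside 65.0% of all genes tested.

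CTD kinase genes, which add the phosphates that RPAP2, SSU72 and CTDP1 remove, were higher in HPB-ALL for 6 of 9, higher in KOPTK1 for 1 and did not pass for 2. The 77.8% that passed stand beside 65.0% of all genes tested, 32.5% higher in HPB-ALL and 32.4% higher in KOPTK1. All 3 subunits of the TFIIH kinase were among the 6: CDK7 (0.44; 14.9 ± 0.902 against 10.98 ± 1.27 RPKM, SD, n = 6 libraries each), MNAT1 (0.30) and CCNH (0.23). CDK9 (0.26) and CCNT1 (0.22), which form P-TEFb, and the Mediator kinase CDK8 (0.30) were the other genes higher in HPB-ALL. CDK12, a kinase of elongating Pol II, was higher in KOPTK1 (-0.35; 32.9 ± 0.773 against 42.0 ± 2.77 RPKM). Its relative CDK13 (-0.07, edgeR adjusted p = 0.066) and the cyclin CCNK (0.00) did not pass. Over all 47 matched genes outside the 9, 26 were higher in HPB-ALL, 10 were higher in KOPTK1 and 11 did not pass, 76.6% past the threshold beside 65.0% of all genes. Without KOPTK1 libraries 4 to 6 the counts were 23, 8 and 16, and without libraries 1 to 3 they were 26, 10 and 11. Of all 23090 genes tested, 12320 and 16073 passed in these fits, respectively, against 15000 over all libraries.

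**Figure D3:**
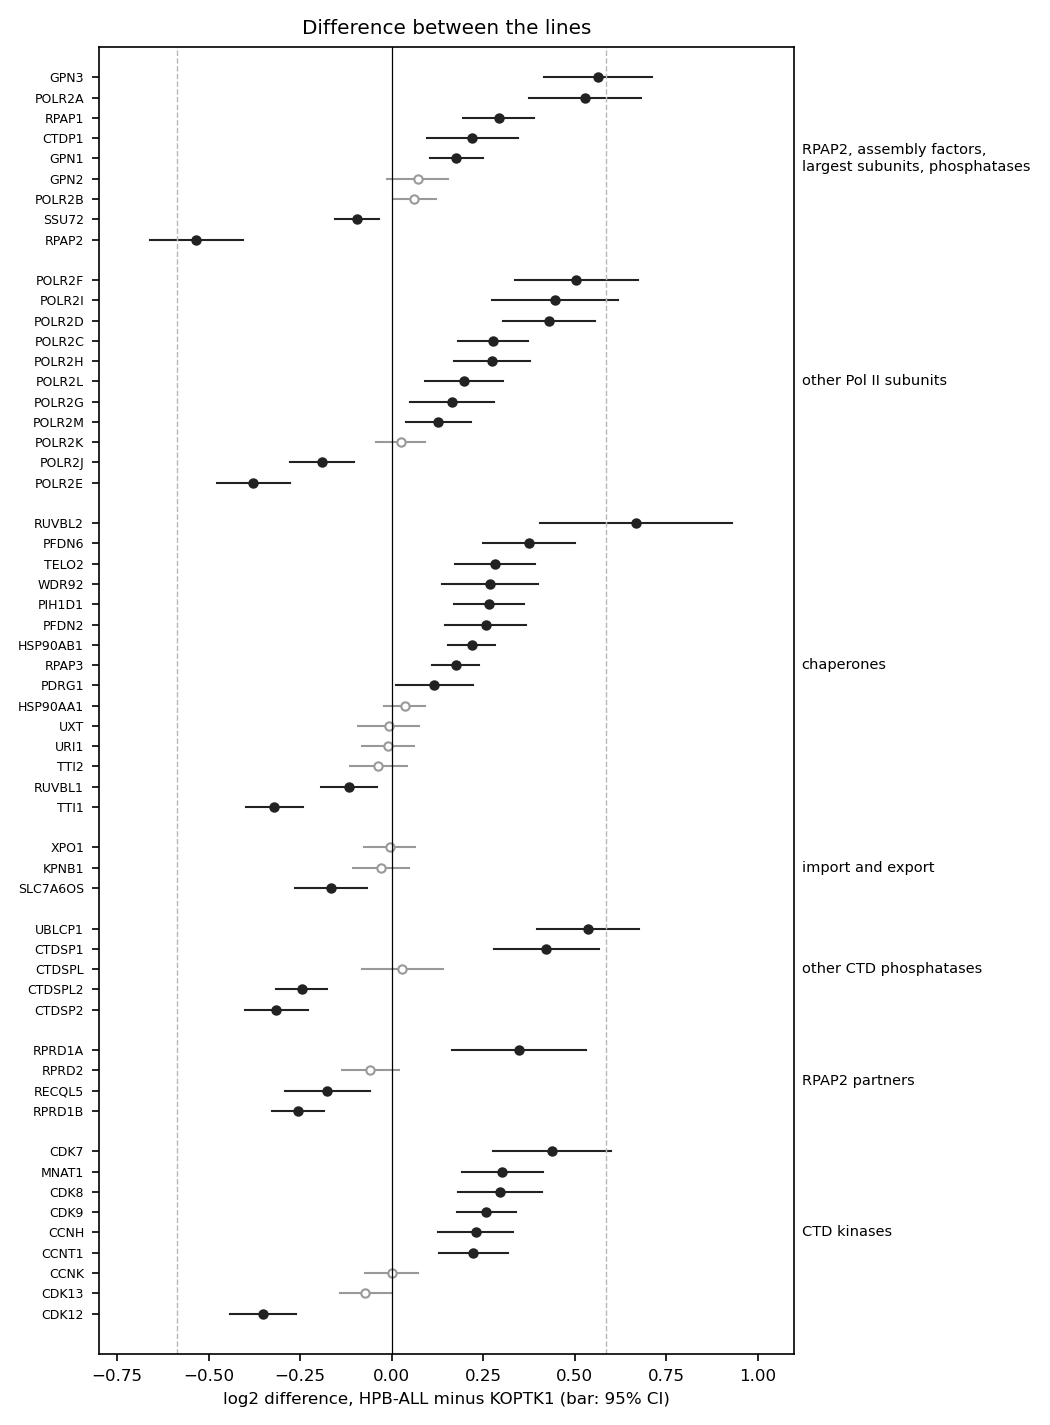
Log2 difference, HPB-ALL minus KOPTK1, with its 95% CI for the 9 genes (top) and the other 47 pathway genes by list, filled points passing an edgeR adjusted p-value of 0.05 and dashed lines marking 1.5-fold. RPAP2, at -0.53, was the lowest of all 56 genes, and RUVBL2, at 0.67, was the highest.

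The genes most like RPAP2 over the libraries were named by Pearson's r of log2(RPKM + 0.1), centred within each line, over 12 libraries and 21454 other genes. They were SYNRG (r = 0.974), KAT6A (r = 0.970), SAMD9 (r = 0.967), ILF2 (r = 0.965) and XPC (r = 0.965). The points share their libraries, and since KOPTK1 libraries fall into sets of 3, r over the 12 libraries largely follows that step. Over the 6 HPB-ALL libraries alone r was 0.723 for SYNRG, 0.762 for KAT6A, 0.807 for SAMD9, 0.985 for ILF2 and 0.587 for XPC.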

How the data were processed

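The authors deposited 1 table per cell line with estimated counts of reads per gene, partly fractional, for 6 libraries (15.1% to 17.2% of values not whole), the summed exon length, and an average log2 CPM over the line. The same tables hold the authors' comparison of 2 groups (log fold change, F, p-value and FDR), which was not used. The labels' processing notes name Trimmomatic 0.36, STAR 2.5.4b, Picard 2.18.7, featureCounts 1.6.2, edgeR 3.22.3 and hg38, and how fractional counts arose is not given in the sources used here. By the study's methods, puromycin selection followed 48 h of culture, and libraries were made with a TruSeq RNA v2 kit as paired-end reads. This kit is known not to mark the strand, which the methods do not state.

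The 12 count columns have no sample name. They were tied to a line through the table name in the labels and to no shRNA. The planned comparison of shSHQ1 with Control and its interaction with the line were therefore not made. RPKM was computed from each count, the column total and the table's length. Counts were rounded and tested with edgeR 4.0.16 in R 4.3.3 (quasi-likelihood F test, TMM over both tables) over the 23090 genes whose RPKM averaged 1 or more in the 12 libraries. A Benjamini-Hochberg adjusted p-value under 0.05 passed. The SE was the log2 difference divided by the square root of F. No 2 libraries of a line held identical values, and each of 30 pairs differed beyond sampling noise (chi-square per degree of freedom of at least 1.75). Symbols were matched to 95.8% of identifiers. The test was also run on simulated counts, with the same spread assumed for all genes and no sets within KOPTK1. Other steps used Python 3.11.15 with pandas 2.3.3.

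The named genes were all 9 members, SHQ1, up to 8 genes of each fixed pathway list (highest, lowest and most changed) and the 5 genes most like RPAP2. Markers were 8 T-lineage, 3 B-cell, 3 myeloid, 2 erythroid and 2 epithelial genes. Members and lists were chosen with earlier results of these data known. Of 48 other pathway genes listed, ASDURF was not matched. Genes named beyond this rule (RUVBL1, PDRG1, POLR2K, CDK13, CCNK, CD2, CD79A) were chosen after their values were seen, and the plot of differences shows every listed gene. Alternatives were DESeq2 1.42.0, its size factors in edgeR, no filter, a minimum of 10 RPKM on average, median centring, scaling to POLR2C to POLR2L and leaving out each library. A 1.5-fold minimum and leaving out each set of 3 KOPTK1 libraries were added after the data were seen.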

Additional observations from a re-analysis of the deposited data

How the results depend on the processing

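The log2 difference of RPAP2 passed under all 19 alternatives in which it was tested, with adjusted p-values from 4.3e-15 to 2.8e-05 (edgeR or DESeq2) and values from -0.58 to -0.50 when 1 library was left out. Of 177 recomputed log2 differences of the 9 genes, 165 had the same direction and the same call. As higher in HPB-ALL, POLR2B passed in 6 alternatives with values from 0.07 to 0.12, and GPN2 passed with no filter (0.13). SSU72 did not pass with no filter (-0.03). The cause was not tested. Scaling to POLR2C to POLR2L, which shifts all differences by 0.18, took GPN1 (0.00) and CTDP1 (0.05) out of the genes that passed. It turned GPN2 to -0.10 and POLR2B to -0.11, and both passed as lower in HPB-ALL (edgeR adjusted p = 0.028 and 0.0023). It also lowered the share of calls higher in HPB-ALL from 50.1% to 27.8% by its construction. The number of genes past the threshold fell from 15000 to 6429 at a mean RPKM of at least 10, where fewer genes were tested, and to 5602 with a 1.5-fold minimum, which left 0 of the 9 genes and 1 of the other 47. It was 14211 to 15288 when 1 library was left out. RPAP2, GPN2 and CTDP1 were not tested at a mean RPKM of at least 10. All 162 recomputed levels moved by less than 1 SD. For the median and for leaving out 1 library this holds by construction. Only the mean of log2 values and the authors' average log2 CPM per length could have moved further. No paired analysis was possible because the headings of the count columns carry neither a replicate number nor the shRNA, and the alternatives planned for shSHQ1 against Control were not run for the same reason. Deposited RPKM values were not used here.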
